A study of Mus musculus with 48 samples.

Results

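The genes described here were 43 developmental transcription factor genes outside the Hox clusters, taken from the Pax, LIM-homeodomain, sine oculis, Dlx, Nkx, Gata, T-box, Meis, Otx, Emx and Foxp families. A methylated locus was assigned to a gene when it overlapped the gene body or the 5 kb on either side of it in the mouse genome build GRCm38. By this rule 267 of the 187695 loci of the series belonged to a member, each to 1 member only, and 31 of the 43 genes held at least 1 locus. The whole annotation had 21911 protein-coding genes, of which 17205 held a locus.

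DNA from the amygdala of 48 male mice aged 4 months on a C57BL/6 strain background (C57BL/6N in the study's methods) was enriched for methylated fragments by a methyl-CpG-binding domain (MBD) and sequenced, with 8 mice in each of 6 groups. The groups were wildtype (Tph2+/+), heterozygous (Tph2+/-) and knockout (Tph2-/-) mice for tryptophan hydroxylase 2, the rate-limiting enzyme of serotonin synthesis in the brain, each without early stress (C) or after maternal separation (MS). Pups were away from the dam 3 h daily between postnatal days 2 and 15. The knockout was constitutive, the adult males had been through behavioural tests, and the DNA came from homogenised tissue of both hemispheres, so that all cell types of the amygdala were mixed, and a change in cell makeup cannot be told apart from a change in methylation within cells. Expression was not analysed here, so the tissue was not checked against marker transcripts.

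Transcription factors of these families set cell identity in the embryo. Their genes lie in broad CpG-rich regions that Polycomb proteins hold and that stay largely free of DNA methylation, also in adult tissue where most of the genes are silent. In the forebrain, Emx, Otx and Six3 pattern the early neural plate, Dlx and Nkx2-1 specify GABAergic cells of the ganglionic eminences, Lhx6 and Lhx8 act in their descendants, and Tbr1, Meis2, Foxp2, Isl1, Lhx2 and Lhx9 mark or specify cell groups of the telencephalon, some of which reach the amygdala. Other members, such as Gata4, Gata6, Tbx5, Pax8 and Pax5, act mainly outside the brain.

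MBD capture binds methylated CpG dinucleotides, so what a sequence yields depends on its CpG content, though 2 of the 267 member loci held no CpG. The sequences below are from RefSeq, build GRCm38.p6, and every CG is in capitals. The first 5 are the 250 bases before the start of a gene. They were chosen to show the start of a gene without an assigned locus (Dlx2, Nkx2-1), a start with a locus close upstream (Lhx2, Gata2) and a start inside a locus (Pax8). Dlx2 lies on the minus strand at chr2:71546755-71547004, Nkx2-1 on the minus strand at chr12:56536909-56537158, Lhx2 on the plus strand at chr2:38339031-38339280, Gata2 on the plus strand at chr6:88193641-88193890 and Pax8 on the minus strand at chr2:24475600-24475849.
Dlx2: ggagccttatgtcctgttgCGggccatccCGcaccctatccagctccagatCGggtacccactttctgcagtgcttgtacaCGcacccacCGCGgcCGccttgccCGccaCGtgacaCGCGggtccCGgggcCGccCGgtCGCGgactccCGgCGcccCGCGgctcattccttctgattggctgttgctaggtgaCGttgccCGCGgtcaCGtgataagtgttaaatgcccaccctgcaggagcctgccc
Nkx2-1: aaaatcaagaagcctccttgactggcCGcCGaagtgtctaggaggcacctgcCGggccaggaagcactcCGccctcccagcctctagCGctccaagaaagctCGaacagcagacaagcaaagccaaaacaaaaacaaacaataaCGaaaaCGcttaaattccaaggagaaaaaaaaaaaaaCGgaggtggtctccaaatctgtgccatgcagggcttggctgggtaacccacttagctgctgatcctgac
Lhx2: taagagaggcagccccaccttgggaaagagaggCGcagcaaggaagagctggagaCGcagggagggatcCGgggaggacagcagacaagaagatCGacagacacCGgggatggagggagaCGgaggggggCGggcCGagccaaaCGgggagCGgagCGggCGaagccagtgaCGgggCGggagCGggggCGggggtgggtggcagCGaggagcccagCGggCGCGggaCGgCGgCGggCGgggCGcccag
Gata2: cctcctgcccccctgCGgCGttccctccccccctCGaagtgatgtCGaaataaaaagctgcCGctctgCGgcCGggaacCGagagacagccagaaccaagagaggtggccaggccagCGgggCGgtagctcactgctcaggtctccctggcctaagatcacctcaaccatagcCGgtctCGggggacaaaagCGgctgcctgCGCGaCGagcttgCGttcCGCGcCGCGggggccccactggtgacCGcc
Pax8: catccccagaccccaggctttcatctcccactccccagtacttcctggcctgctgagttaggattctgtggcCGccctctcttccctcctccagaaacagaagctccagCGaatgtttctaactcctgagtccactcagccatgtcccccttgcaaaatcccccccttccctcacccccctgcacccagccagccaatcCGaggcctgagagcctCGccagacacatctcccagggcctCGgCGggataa
The Dlx2 stretch held 24 CG, Nkx2-1 9, Lhx2 25, Gata2 22 and Pax8 6. The same letters read on both strands, so 1 search covers both. Of all 32851 RefSeq promoter stretches of this length, 11.98% held as many CG as Dlx2, 10.7% as many as Lhx2, 14.8% as many as Gata2, 40.3% as many as Nkx2-1 and 50.4% as many as Pax8. At least 1 CG stood in 92.1% of all these stretches, with a median of 6, and in each of the 44 stretches that belonged to 32 of the members, with a median of 14.5.

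The starts of the members were largely outside the captured loci. A locus came within 500 bp of an annotated start in 3 of the 43 members (6.98%), Tbx1, Pax5 and Pax8, against 14.6% of all protein-coding genes and 7.04% of the 11024 genes with at least 4 CpG per 100 bp in the kilobase around the start. The stretch around the start that held no locus had a median length of 24.8 kb in the members and 22.7 kb in all protein-coding genes. These lengths were close to each other, and what set the members apart in this description was the CpG content: the stretch held a median of 603 CpG in the members, 251 in all genes and 331 in the genes with CpG-dense starts. It held over 500 CpG in 27 of the 43 members (62.8%), 21.7% of all genes and 29.6% of the genes with CpG-dense starts. In 33 other genes of the same families the median was 397 CpG over 20.3 kb, and 14 of them passed 500. A stretch without a locus holds no region that the peak calling kept, which is not a measurement of 0 methylation. The lengths are those among the 187695 loci analysed here, and any further locus would shorten them.

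The longest of these stretches lay at Lhx1, Dlx5, Dlx6, Isl1 and Pax1. At Lhx1, a LIM factor of the early kidney and brain, it ran over 87.5 kb and 1091 CpG. Dlx5 and Dlx6, a neighbouring pair that acts in GABAergic neurons and the jaw, shared 1 stretch of 86.5 kb with 1219 CpG, and Dlx1 and Dlx2 shared 1 of 39.8 kb with 992 CpG. Isl1, a factor of striatal and motor neurons, had 73.5 kb, Pax1 of the vertebral column had 54.6 kb, and Pax3, a neural crest factor, had 53.5 kb with 1054 CpG. At the short end stood the starts of Otx1 with 3.23 kb, Tbx1 with 3.22 kb, Lhx2 with 3.56 kb, Emx1 with 7.63 kb, Meis1 with 8.36 kb and Tbr1 with 9.49 kb. Of these, Lhx2, Emx1 and Tbr1 act in the cortical primordium, but Emx2, of the same family as Emx1, had 31.7 kb. The starts of Pax5 and Pax8 lay inside a locus.

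**Figure D1:**
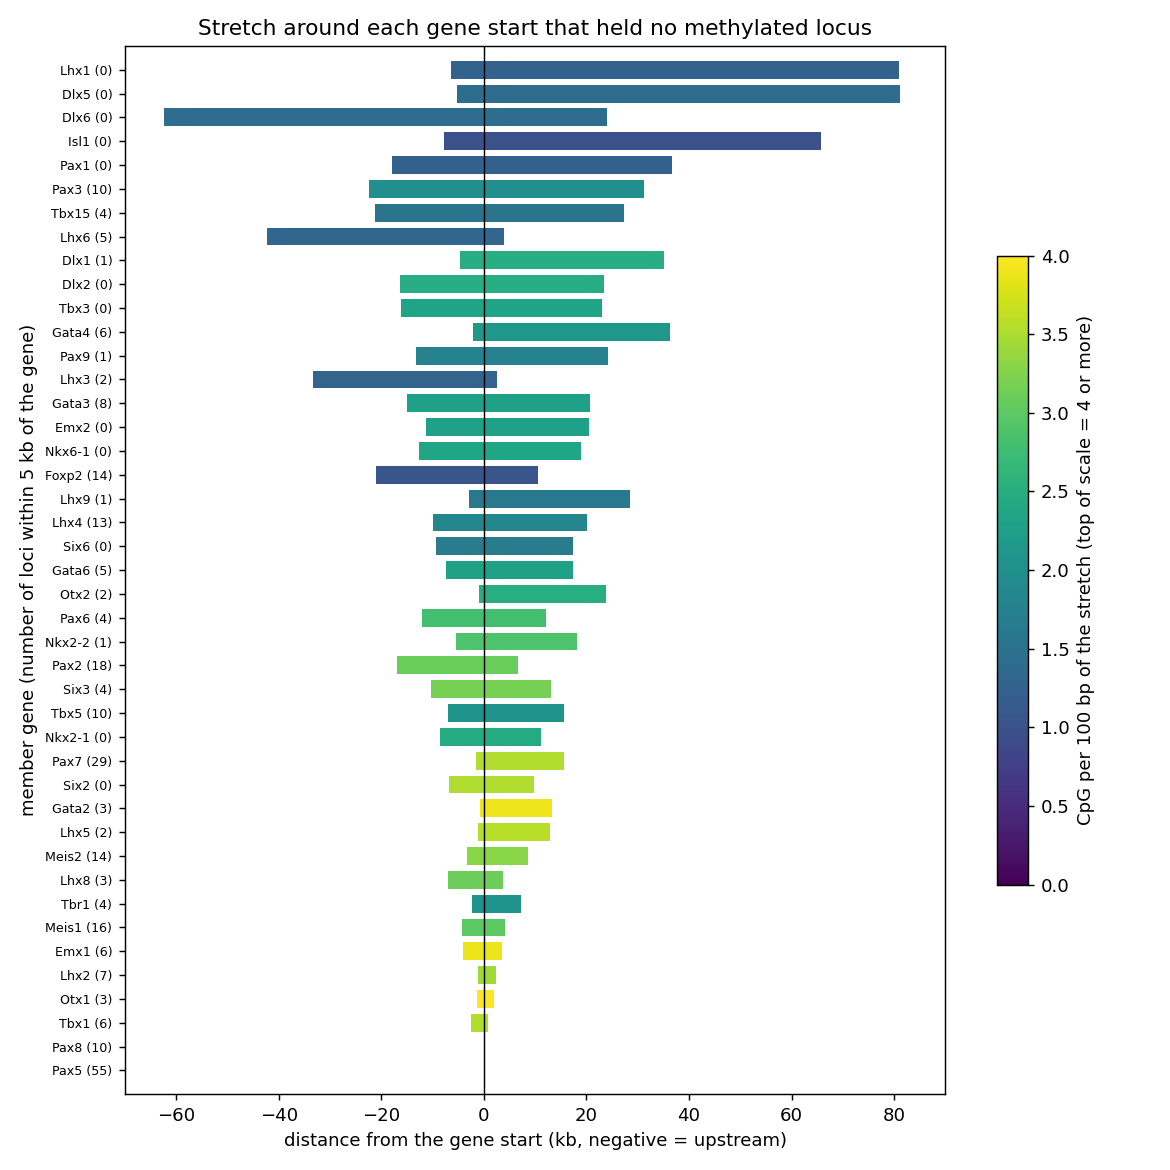
For each of the 43 member genes, the bar spans the stretch around the gene start, in kb from the start, that held no methylated locus, and its colour gives the CpG per 100 bp in it. Bars run from none at Pax5 and Pax8, whose starts lie inside a locus, to 87.5 kb at Lhx1, and the shorter bars tend to be the CpG-denser ones. The number of loci within 5 kb of each gene stands in brackets.

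The free stretch leaned downstream, with a median of 7.03 kb upstream and 15.7 kb downstream of the start in the members. All genes had 8.61 kb and 9.39 kb. The downstream part could run past the gene end, as at Lhx1, where it measured 81046 bp. Between the start and 15 kb downstream, 12.9% of the 1 kb steps of the members held a locus, against 18.3% in all genes. From 15 kb to 5 kb upstream the order was the other way, with 26.3% in the members and 19.2% in all genes, and from 20 kb to 30 kb downstream the members had 26.3% against 19.1%. Within 5 kb on either side the shares were 13.7% and 15.8%. These ranges were chosen after the profile was seen, and steps of neighbouring members such as Dlx1 and Dlx2 cover the same sequence.

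**Figure D2:**
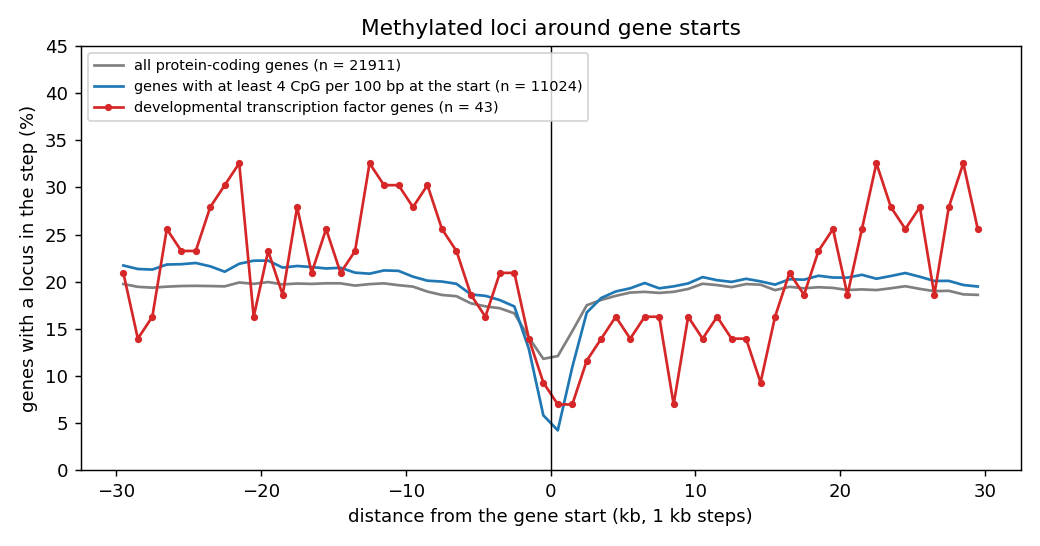
Percentage of genes with a methylated locus in each 1 kb step from 30 kb upstream to 30 kb downstream of the gene start, for the 43 members (red), all 21911 protein-coding genes (grey) and the 11024 genes with CpG-dense starts (blue). The members lie below both reference lines over most of the 15 kb downstream of the start and above both from 14 kb to 7 kb upstream.

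Loci were spread unevenly over the families. No locus was assigned to 12 members, namely Pax1, Lhx1, Six2, Six6, Dlx2, Dlx5, Dlx6, Nkx2-1, Nkx6-1, Tbx3, Isl1 and Emx2, a share of 27.9% against 21.5% of all protein-coding genes. Of the 4 Dlx genes only Dlx1 held a locus, and of the 3 Nkx genes only Nkx2-2, a factor of the ventral neural tube and of oligodendrocyte formation, held 1. The 8 Pax genes together held 127 loci. Most of them lay in Pax5, which specifies B lymphocytes and the midbrain boundary, with 55 loci, in Pax7 of muscle stem cells and dorsal neural tube with 29, and in Pax2 of kidney and hindbrain boundary with 18. Meis1, a cofactor of Hox proteins, held 16 loci, Meis2 and Foxp2 held 14 each, Lhx4 of pituitary and motor neurons held 13, and Pax3, Pax8 and Tbx5 held 10 each. These 10 genes accounted for 189 of the 267 loci.

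Per length, Tbx1, a factor of the pharyngeal arches, held the most loci, 3.05 per 10 kb, followed by Pax5 with 2.81 and Pax7 with 2.72. Foxp2, a forkhead factor of striatal and cortical neurons, held the fewest of the genes with any, 0.254 per 10 kb. The median over the 43 members was 0.873 per 10 kb, against 0.734 in all protein-coding genes. The remaining genes held between 1 and 8 loci each, with 8 in Gata3, 7 in Lhx2, 6 in Gata4 and Emx1, 5 in Gata6 and Lhx6, 4 in Pax6, Six3, Tbx15 and Tbr1, 3 in Lhx8, Gata2 and Otx1, 2 in Lhx3, Lhx5 and Otx2, and 1 in Pax9 and Lhx9.

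Of the 267 loci, 168 lay in introns (62.9%), 48 touched a coding exon (17.98%), 8 touched a UTR without coding sequence and 2 a noncoding exon, and 20 lay in the upstream and 21 in the downstream flank. They had a median width of 925 bp with 14 CpG, or 1.49 CpG per 100 bp, against 911 bp, 16 CpG and 1.85 CpG per 100 bp for the 97671 loci of all protein-coding genes. No CpG stood in 2 of the member loci and in 375 of all 187695 loci, and the source of the counts there was not tested. The levels of the member loci and of the loci of all protein-coding genes were close. The median was 2.64 CPM per kb of locus (CPM are counts scaled to a common library total), against 2.70 CPM per kb.

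Summed over its loci and divided by their length, the level per gene ranged from 1.93 CPM per kb of locus in Pax9, which rested on 1 locus, to 3.19 CPM per kb in Tbx1, with Tbx5 at 3.16 and Pax5 at 3.02. The median was 2.78 in the 31 members and 2.89 in all 17205 genes with a locus. Neighbours in this order differed by less than their spread over libraries, for example 0.718 (SD) CPM per kb in Tbx1 and 0.345 in Tbx5, each over 46 libraries. Between control libraries of 1 group the gene sums varied by a median of 10.6% (coefficient of variation). The most variable were Pax9 with 42.1%, Lhx9 with 30.2% and Dlx1 with 25.5%, which had 1 locus each, and these sums stood on means of 17.4, 17.2 and 40.9 counts per library.

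**Figure D3:**
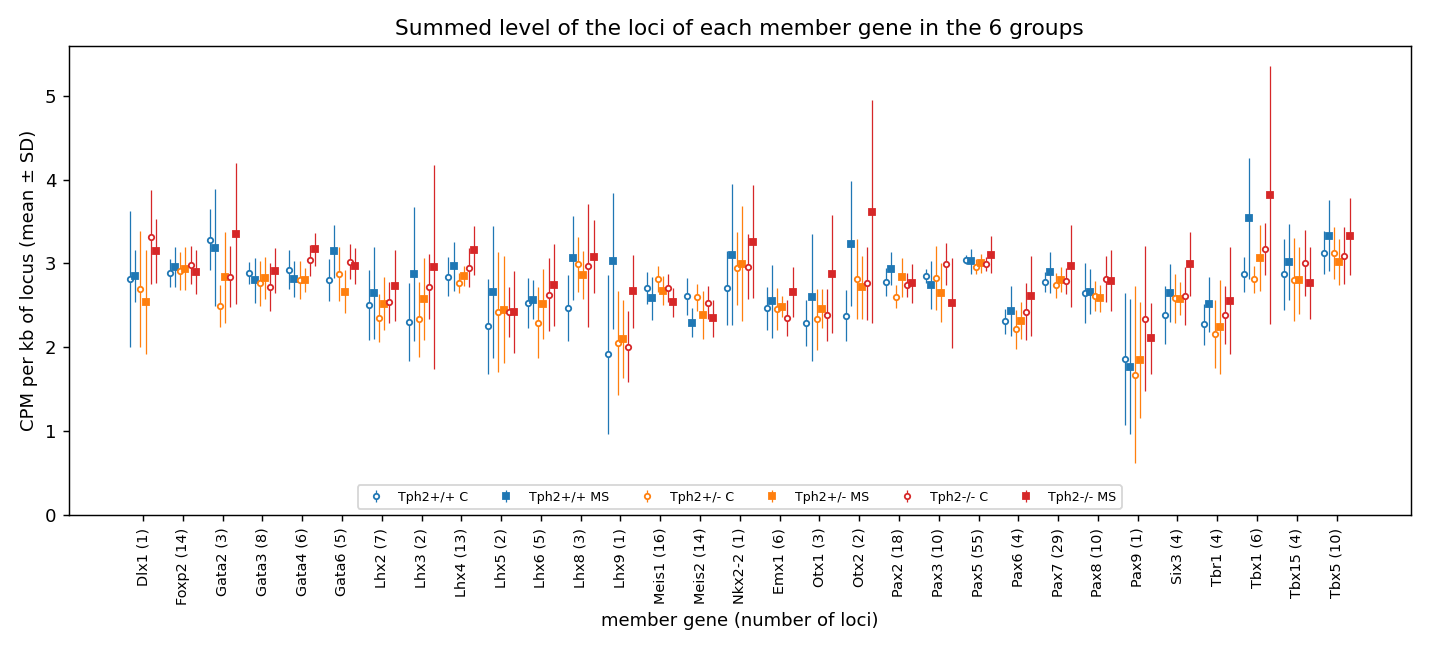
Summed CPM per kb of locus for the 31 member genes with a locus, as mean ± SD in each of the 6 groups (8 mice per group, 6 in Tph2-/- MS), with the number of loci in brackets. Most genes sit between 2 and 3.5 CPM per kb in every group, Pax9 has the lowest mean over the 46 libraries, and the widest bars are those of Tbx1 and Otx2 in Tph2-/- MS.

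The 3 loci at member starts were captured in every group. At Pax8, a factor of thyroid and kidney, the locus at chr2:24474612-24475941 spanned the start and 36 CpG. Its level in the control groups had a lowest, median and highest value of 1.62, 3.35 and 4.18 CPM in Tph2+/+, 1.52, 3.15 and 4.89 in Tph2+/- and 2.57, 4.36 and 5.45 in Tph2-/-. At Pax5 the locus at chr4:44708381-44710617 had 20 CpG, and its control medians were 7.03, 7.23 and 8.21 CPM in the same order. The ranges of the groups overlapped at both loci, and neither met the limits below in any comparison.
The Tbx1 locus at chr16:18583732-18586645 was 2914 bp wide, held 86 CpG, touched coding exons and lay over a downstream alternative start. It was among the 3 member loci with the highest counts, with 132 counts per library. The other 2 were a locus of 72 CpG in coding exons of Tbx5 at chr5:119882132-119884693 with 148.4 counts and an intronic locus of 68 CpG in Gata4 at chr14:63231028-63235398 with 135 counts.

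Totals per library ranged from 7724481 to 14133801 counts. A member locus held a median of 27 counts per library, for which counting error alone has an SD of 19.2%, and from 0 to 299. Numbers in the labels run from S1 to S48, and the C libraries hold S1 to S17 and S42 to S48 while the MS libraries hold S18 to S41, so rearing and number cannot be told apart fully. The 9 libraries S18 to S26, all MS, included those with the steepest rise of counts with CpG density, with slopes from -0.0515 to 0.333 against -0.103 to 0.058 in S1 to S17. The slope of 0.333 was that of Tph2-/- MS replicate 3, which the fits of 46 libraries left out. The next was 0.242, in replicate 2 of that group. At member loci, the summed level of the CpG-denser loci over that of the sparser ones, split at the median, had a median of 1.32 in S18 to S26, 1.25 in S1 to S17, 1.28 in S27 to S41 and 1.26 in S42 to S48, with overlapping ranges. The values named below are therefore given also without S18 to S26. The study dropped 2 low-count libraries of the Tph2-/- MS group without saying in the labels which they were. Unless another set is named, fits here dropped the pair with the smallest totals in this group, replicates 3 and 7, which leaves 46. The comparisons share groups and are not independent of each other.

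The comparison of MS with C over all genotypes asks which loci carry a mark of early separation into adult life. With the study's limits, an unadjusted p below 0.01 and a log2 fold change beyond 0.2, 11 of the 267 member loci (4.12%) were called in edgeR's quasi-likelihood test, against 3.63% of all loci. Higher after MS were 6 (2.25%, against 2.28%) and lower 5 (1.87%, against 1.35%), so both shares were near the background. No member locus had an adjusted p below 0.05 (0.0128% of all loci did). DESeq2 also gave none after adjustment, and the median log2 fold change was 0.03 over the members and 0.00 over all loci. The higher loci lay in Tbx1 (2 loci), Six3, Otx1, Pax2 and Lhx4, and the lower ones in Meis1 (2 loci), Foxp2, Pax7 and Pax3. The higher loci had a median of 29.5 CpG and the lower ones 13. Without S18 to S26 the count was 1, the first Meis1 locus below, and the background was 1.26%. That fit had 14 MS libraries in place of 22, all 11 loci kept their direction, and the median size of their log2 fold change was 0.20 in place of 0.33. The smallest was 0.01, at a Tbx1 locus. The 11 loci were picked in a fit that shares these libraries, so a kept direction was likely beforehand.

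**Figure D4:**
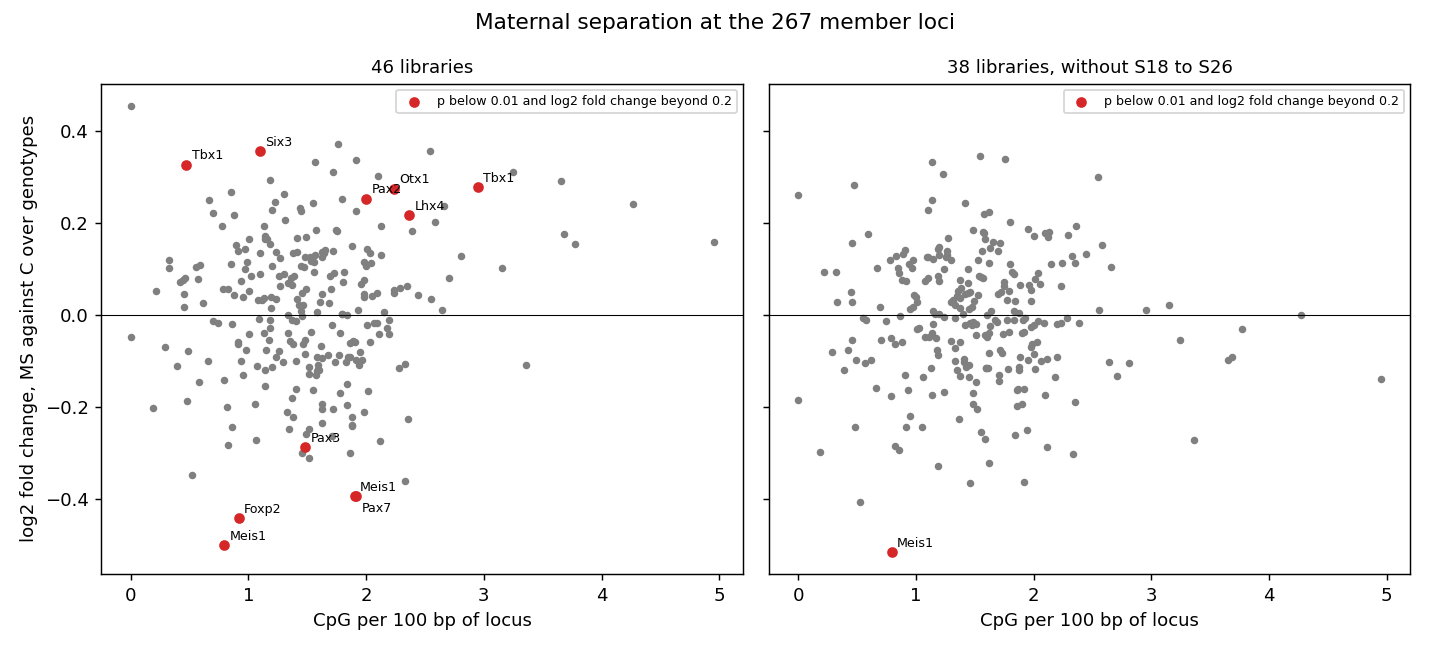
Log2 fold change of MS against C over genotypes (y axis) and CpG per 100 bp of locus (x axis) for the 267 member loci, in the fit of 46 libraries (left) and in the fit of 38 libraries without S18 to S26 (right). Red points with gene names passed both limits. There are 11 on the left and 1, in Meis1, on the right.

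Meis1 carried the lower loci with the smallest p. The intronic locus at chr11:18929388-18930141 had 6 CpG in 754 bp, and its 300 bases with the most CG, at chr11:18929410-18929709 on the plus strand, are printed to show how few CpG a called locus can hold.
Meis1: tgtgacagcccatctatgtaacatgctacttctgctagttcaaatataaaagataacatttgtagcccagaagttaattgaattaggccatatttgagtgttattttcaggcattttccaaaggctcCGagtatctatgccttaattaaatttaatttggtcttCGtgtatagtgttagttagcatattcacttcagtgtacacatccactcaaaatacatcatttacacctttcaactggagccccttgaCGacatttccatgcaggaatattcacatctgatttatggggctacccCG
Over the genotypes, the C libraries had a lowest, median and highest level of 0.98, 2.01 and 4.599 CPM and the MS libraries 0.64, 1.51 and 3.04 CPM. The ranges overlapped, and 3 of 22 MS libraries lay above the C median. The log2 fold change was -0.50 ± 0.15 (SE; adjusted p = 0.165, edgeR), and it was -0.52 without S18 to S26. The other intronic Meis1 locus, at chr11:18944219-18945479 with 24 CpG, had medians of 3.11 CPM in C and 2.45 CPM in MS and a log2 fold change of -0.39 ± 0.12 (adjusted p = 0.177, edgeR), which was -0.20 without S18 to S26, and -0.30 and no longer called with a term for late sample numbers. A locus in Meis1 coding sequence close to the start, at chr11:19013085-19014900 with 61 CpG, was not called for MS.

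Tbx1 carried 2 higher loci of opposite makeup. The wide locus over its alternative start is CpG-dense, as its richest 300 bases, chr16:18586254-18586553 on the plus strand, show with 29 CG.
Tbx1: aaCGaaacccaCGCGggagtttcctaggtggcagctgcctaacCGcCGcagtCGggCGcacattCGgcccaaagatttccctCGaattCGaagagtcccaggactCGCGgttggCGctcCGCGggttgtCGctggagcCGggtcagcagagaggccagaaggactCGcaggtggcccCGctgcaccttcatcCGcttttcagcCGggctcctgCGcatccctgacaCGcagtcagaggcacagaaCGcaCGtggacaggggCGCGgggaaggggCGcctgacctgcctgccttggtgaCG
Its lowest, median and highest levels were 8.63, 10.8 and 14.6 CPM in C and 8.12, 12.002 and 30.7 CPM in MS. The ranges overlapped, 17 of 22 MS libraries lay above the C median, and the highest value came from Tph2-/- MS replicate 2, 1 of S18 to S26. The log2 fold change was 0.28 ± 0.09 (adjusted p = 0.182, edgeR). It was 0.01 without S18 to S26, 0.15 with a CpG density offset, and 0.18 when replicates 2 and 3 of Tph2-/- MS were dropped and 7 was kept, and none of these fits called it. The last fit called 8 member loci, 2 higher and 6 lower, and 2.58% of all loci. The locus upstream of Tbx1, at chr16:18594536-18595800, held 6 CpG in 1265 bp. Its levels were 1.82, 2.97 and 4.55 CPM in C and 2.59, 3.75 and 5.20 CPM in MS, and 19 of 22 MS libraries lay above the C median. The log2 fold change was 0.33 ± 0.10 (adjusted p = 0.183, edgeR), and 0.28 without S18 to S26, where it was not called.

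In the sums per gene, 11 of the 31 members with a locus (35.5%) had an unadjusted p below 0.05 for MS over genotypes, against 20.0% of all genes tested, and no member had an adjusted p below 0.05 (0.0349% of all genes did). Higher were 8 (25.8%, against 15.8%), namely Tbx1, Otx2, Lhx9, Otx1, Pax2, Six3, Pax7 and Lhx4, and lower were 3 (9.68%, against 4.19%), namely Meis2, Pax3 and Meis1. Without S18 to S26 the count was 2 of 31, against 5.57% of all genes. The members with a locus held a median of 5 loci, against 3 in all genes with a locus. The part of this difference in the shares was not tested. The smallest p was that of Meis2, a factor of striatal and amygdala cells, with sums of 30.05 ± 2.54 CPM without and 26.4 ± 1.96 CPM with separation in Tph2+/+, 29.9 ± 1.84 and 27.5 ± 3.32 in Tph2+/-, and 29.1 ± 2.27 and 26.99 ± 2.4997 in Tph2-/- (SD, n = 8, and 6 in Tph2-/- MS). The MS mean was the lower one in each genotype. The log2 fold change was -0.13 ± 0.04 (adjusted p = 0.102, edgeR), and -0.10 without S18 to S26. Tbx1 had a log2 fold change of 0.23 ± 0.07 and Otx2, a factor of forebrain and eye, of 0.26 ± 0.09, which came to 0.02 and 0.04 without S18 to S26. Among the family relatives, 25 of 33 held a locus and 6 had a p below 0.05, all higher, among them Dlx3 and Lmx1b. Among 21 marker genes of neurons, astrocytes, oligodendrocytes and microglia, where methylation rather than expression was read, 19 held a locus and 3 had a p below 0.05. Aif1 and Csf1r of microglia, 1 of them higher and 1 lower, and Gfap of astrocytes, which was higher, were these 3. Of all genes tested, 20.0% met this limit. The part of these markers in the member results was not tested.

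In Tph2+/+ mice, 4 member loci (1.498%) met the limits for MS against C, where 1.31% of all loci did, and none had an adjusted p below 0.05 (0 of all loci). DESeq2 called 8, with 1.56% of all loci, and a fit with a CpG density offset 9, with 1.46%. A locus 901 bp upstream of the Otx2 start, at chr14:48674721-48675662 with 18 CpG, stood at the edge of the free stretch of this gene. Its levels were 0.35, 1.45 and 2.36 CPM in C and 1.01, 2.26 and 4.81 CPM in MS. The ranges overlapped, 7 of 8 MS libraries lay above the C median, and the log2 fold change was 0.80 ± 0.25 (adjusted p = 0.749, edgeR), with 0.47 without S18 to S26. The upstream Tbx1 locus was higher by 0.48 ± 0.17 on the log2 scale, with all 8 MS libraries above the C median, and by 0.52 without S18 to S26. With a term for late sample numbers it was 0.46 and not called. Lower loci lay in coding sequence of Foxp2 at chr6:15404765-15406304, with a log2 fold change of -0.56 ± 0.20 and medians of 3.31 and 2.04 CPM, and downstream of Pax7 at chr4:139731850-139732527, with -0.64 ± 0.24 and medians of 2.14 and 1.31 CPM. They were at -0.48 and -0.63 without S18 to S26, and in that fit neither they nor the Otx2 locus were called. The term for late sample numbers also ended the Foxp2 call, at -0.51. Of the gene sums, 6 of 31 (19.4%, against 7.32%) had a p below 0.05 and none an adjusted p below 0.05 (0 of all genes). Otx2 was higher by 0.44 ± 0.15, Lhx9 of limbic and diencephalic cells by 0.65 ± 0.24 on 1 locus, and Lhx8 of cholinergic neurons, Tbx1 and Gata6 were also higher, whereas Meis2 was lower at -0.18 ± 0.07. Without S18 to S26, 1 of the 31 met this limit, Lhx9 with 0.77, against 4.88% of all genes, while Otx2 was at 0.28 and Meis2 at -0.15.

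In Tph2+/- mice, 1 member locus (0.375%) met the limits, against 0.779% of all loci, and none passed adjustment in edgeR or DESeq2. It lay in an intron of Pax5 at chr4:44571107-44572037, with 0.91, 1.67 and 2.54 CPM in C and 1.69, 2.75 and 3.57 CPM in MS. All 8 MS libraries lay above the C median though the ranges overlapped, and the log2 fold change was 0.63 ± 0.22 (adjusted p = 1, edgeR), with 0.70 without S18 to S26. Of the gene sums, Pax2 alone met p below 0.05 (3.23%, against 4.22%), at 0.12 ± 0.05. It was 0.14 without S18 to S26, and 0.11 without the 5 kb flanks, where it did not meet the limit.

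In Tph2-/- mice, 3 member loci (1.12%) met the limits, against 1.48% of all loci, and none passed adjustment (0 of all loci and genes). With the 2 low-count libraries kept, 14 member loci and 5.37% of all loci met them. The locus in Lhx4 coding sequence, chr1:155704367-155705889, held 36 CpG. Its richest 300 bases, chr1:155705154-155705453 on the plus strand, are printed because this locus was called in 3 of the comparisons, which share libraries.
Lhx4: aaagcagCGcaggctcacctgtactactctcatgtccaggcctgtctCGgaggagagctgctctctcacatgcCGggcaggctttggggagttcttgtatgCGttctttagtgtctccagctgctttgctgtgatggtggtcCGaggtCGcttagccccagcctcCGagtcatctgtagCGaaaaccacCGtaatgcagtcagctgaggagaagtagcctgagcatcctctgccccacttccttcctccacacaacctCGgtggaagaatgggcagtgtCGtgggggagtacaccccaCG
Its levels were 4.16, 4.93 and 6.90 CPM in C and 6.10, 6.67 and 7.74 CPM in MS. All 6 MS libraries lay above the C median, and 1 control, replicate 7, reached into the MS range. The log2 fold change was 0.43 ± 0.15 (adjusted p = 0.655, edgeR), with 0.39 and no call without S18 to S26. An intronic Pax2 locus at chr19:44799308-44800200 was lower, with medians of 2.68 and 1.76 CPM, none of 6 MS libraries above the C median and a log2 fold change of -0.65 ± 0.22. It was not called without S18 to S26 (-0.66), with all 48 libraries (-0.54) or with replicates 2 and 3 dropped (-0.52). An intronic Pax5 locus at chr4:44664719-44666520 had 0.49 ± 0.18, and 0.19 without S18 to S26. DESeq2 (0.49) and the fit with replicates 2 and 3 dropped (0.46) did not call it either. Of the gene sums, 6 of 31 (19.4%) had a p below 0.05, where 12.7% of all genes did. Otx2 stood at 0.40 ± 0.15, Emx1 of dorsal telencephalon at 0.19 ± 0.09, Six3, Otx1 and Tbx1 were also higher, and Pax3 stood at -0.24 ± 0.09. Without S18 to S26 none of the 31 met this limit, against 5.56% of all genes, and Otx2 was at -0.038, Emx1 at 0.080 and Pax3 at -0.055.

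Genotype was compared over both rearing conditions. Tph2+/- against Tph2+/+ gave 2 member loci (0.749%) within the limits, against 0.546% of all loci, and 0 with an adjusted p below 0.05 (0.00213% of all loci). An intronic Pax5 locus at chr4:44555098-44556044 was higher in Tph2+/-, with 1.14, 2.14 and 3.21 CPM in Tph2+/+ and 1.56, 2.87 and 3.61 CPM in Tph2+/- mice and a log2 fold change of 0.41 ± 0.14. The Lhx4 locus printed above was lower, with medians of 5.99 and 5.01 CPM and -0.29 ± 0.10, and 2 of 16 Tph2+/- libraries lay above the Tph2+/+ median. Neither was called without S18 to S26, at 0.32 and -0.23. Of the gene sums, Gata2 and Pax2 had a p below 0.05 (6.45%, against 2.77%), and no member passed adjustment (0.0349% of all genes did). Gata2, a factor of blood stem cells and of GABAergic midbrain neurons, had wildtype sums of 10.2 ± 1.14 CPM without and 9.90 ± 2.16 with separation, and heterozygous sums of 7.72 ± 0.775 and 8.80 ± 1.68 (SD, n = 8 each). Both Tph2+/- means lay below both Tph2+/+ means, and the log2 fold change was -0.28 ± 0.09 (adjusted p = 0.999, edgeR), with -0.27 without S18 to S26.

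Tph2-/- against Tph2+/+ gave 3 member loci (1.12%), against 0.748% of all loci, and 0 with an adjusted p below 0.05 (0.0139% of all loci). The smallest p was that of an intronic Lhx4 locus at chr1:155722795-155723383 with 15 CpG, with 0.32, 1.01 and 2.67 CPM in Tph2+/+ and 0.76, 1.69 and 2.75 CPM in Tph2-/- mice. The ranges overlapped, 12 of 14 Tph2-/- libraries lay above the Tph2+/+ median, and the log2 fold change was 0.82 ± 0.23 (adjusted p = 1, edgeR), with 0.55 and no call without S18 to S26. The locus held 13.5 counts per library. The Pax5 locus of the preceding comparison was higher here too, by 0.40 ± 0.14, against the same Tph2+/+ libraries, and by 0.37, with no call, without S18 to S26. The CpG-dense Meis1 locus close to the start was higher by 0.35 ± 0.13, with a highest value of 8.70 CPM in Tph2-/- MS replicate 2, and by 0.11 without S18 to S26. It was also not called by DESeq2 (0.36), with a CpG density offset (0.25) or with replicates 2 and 3 of Tph2-/- MS dropped (0.21). Of the gene sums, Gata4, a factor of heart and gonad, at 0.11 ± 0.04 and Six3 at 0.15 ± 0.07 had a p below 0.05 (6.45%, against 4.95%), and no member passed adjustment (0.0465% of all genes did). They were at 0.12 and 0.16 without S18 to S26. Gata4 did not meet the limit with all 48 libraries (0.087), nor Six3 without the 5 kb flanks (0.21).

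The interactions ask whether MS acted differently in Tph2+/- (GE1) or Tph2-/- (GE2) than in Tph2+/+ mice. For GE1, 0 member loci met the limits in edgeR or DESeq2, against 0.626% of all loci. The smallest p was that of the Otx2 edge locus, at -0.91 ± 0.35, where the mean went from 1.41 to 2.49 CPM with MS in Tph2+/+ and from 2.16 to 1.99 CPM in Tph2+/-. Of the gene sums, 3 (9.68%, against 3.04%) had a p below 0.05. Otx2 was at -0.50 ± 0.21, Lhx8 at -0.36 ± 0.17 and Gata6, a factor of endoderm, at -0.27 ± 0.11, and none had an adjusted p below 0.05. When S18 to S26 were dropped, the Otx2 locus was at -0.85 and the Otx2 sum at -0.42, while Lhx8 at -0.22 and Gata6 at -0.22 no longer met the limit.

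For GE2, 2 member loci (0.749%, against 0.558%) met the limits. At an intronic Gata3 locus, chr2:9862179-9863001 with 8 CpG, the medians went from 2.56 to 1.92 CPM with MS in Tph2+/+ and from 1.39 to 1.93 CPM in Tph2-/-, and the interaction was 0.99 ± 0.33 on the log2 scale (adjusted p = 1, edgeR). Gata3 specifies T lymphocytes and serotonergic and inner-ear neurons. At a locus in Foxp2 coding sequence, chr6:15394377-15395251 with 12 CpG, the medians went from 1.53 to 2.05 CPM in Tph2+/+ and from 1.83 to 1.54 CPM in Tph2-/-, with an interaction of -0.97 ± 0.35. The ranges overlapped at both loci in each genotype. Without S18 to S26 the interaction was 0.60 at Gata3, which was then not called, and -1.28 at Foxp2. None of the 31 gene sums had a p below 0.05 for GE2, against 3.68% of all genes.

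**Figure D5:**
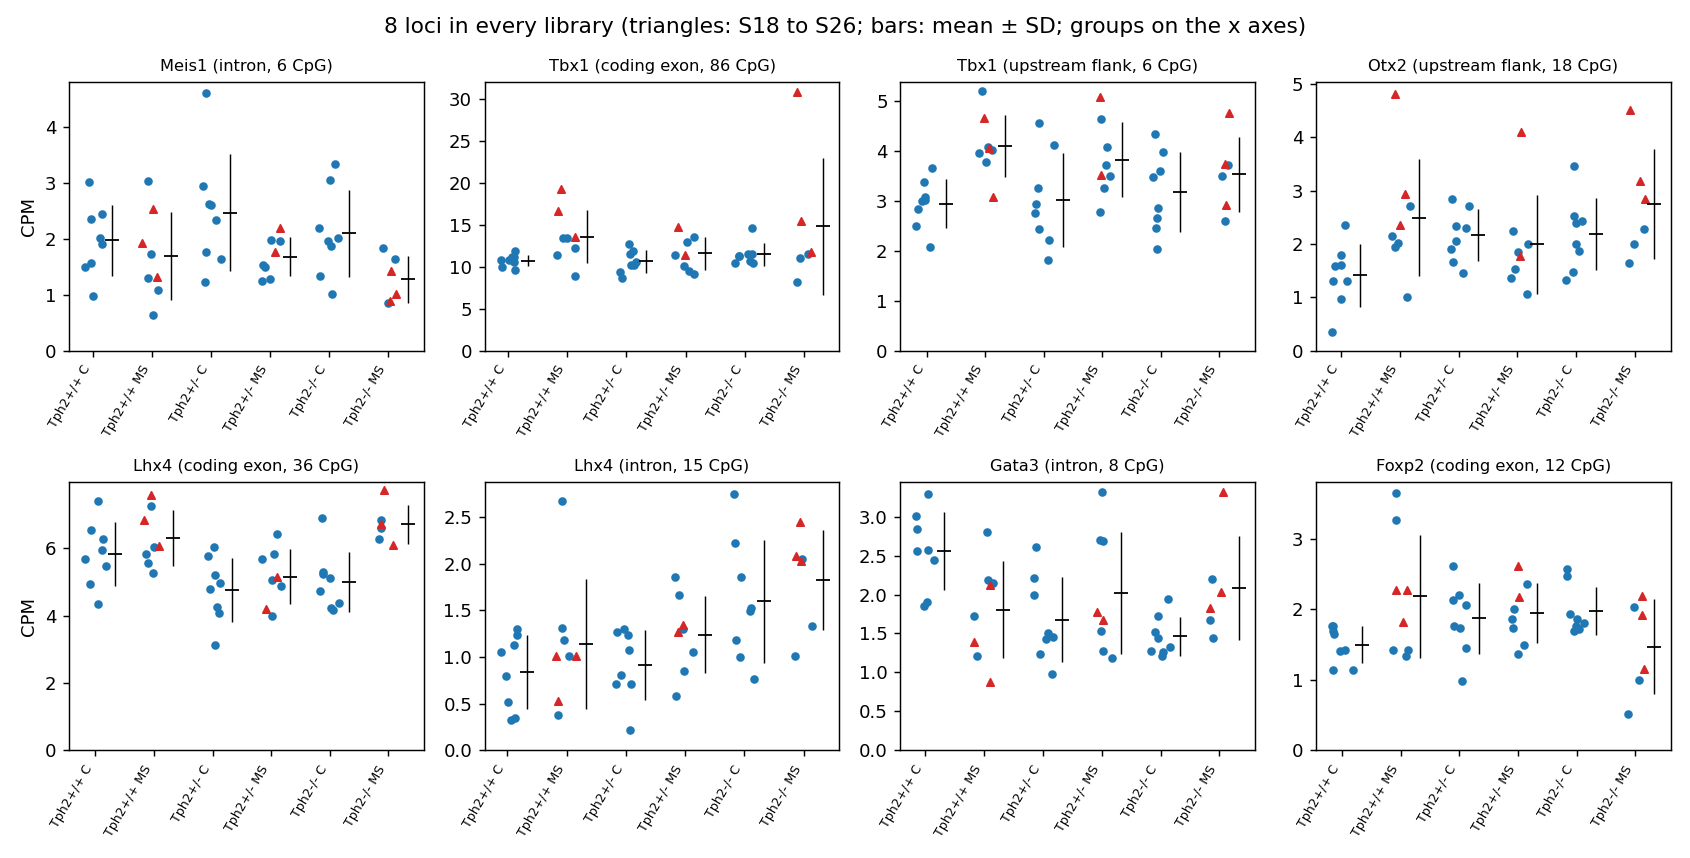
CPM of 8 named loci in Meis1, Tbx1, Otx2, Lhx4, Gata3 and Foxp2 in each of the 46 libraries, by group, with mean ± SD as bars and the libraries S18 to S26 as red triangles. The groups overlap in every panel, and the highest point at the wide Tbx1 locus, 30.7 CPM, is a triangle in Tph2-/- MS.

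The summed level over all 267 member loci was 796 ± 16.3 CPM without and 820 ± 44.9 CPM with separation in wildtype mice, 783 ± 11.8 and 792 ± 18.7 in heterozygous mice, and 807 ± 26.3 and 837 ± 70.7 in knockout mice (SD, n = 8, and 6 separated knockouts). The MS mean was the higher one in each genotype, the ranges of C and MS libraries overlapped in each, and the MS groups had the larger spread. The difference in these totals was not tested. Late against early control libraries, S42 to S48 against S1 to S17, gave 4 member calls (1.498%) at the same limits, against 3.29% of all loci. The 4 loci lay in Lhx6, Meis2, Pax7 and Foxp2. With so few calls, whether they were shared with those for MS shows nothing about sample numbers.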

How the data were processed

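The authors aligned paired reads to GRCm38 with Bowtie2 2.1.0, called peaks with MACS and merged them over libraries with DiffBind 2.0.9. The deposited values are raw read counts per locus and library, the unit used here. MBD capture recovers methylated, CpG-dense DNA, so counts rise with CpG number as well as methylation, and loci that no peak call kept are not seen. Here, counts were fitted with edgeR 4.0.16 in R 4.3.3 (TMM scaling, quasi-likelihood test, 1 term per group, all 187695 loci, Benjamini-Hochberg adjustment, no filter on low counts). The test was also run on simulated counts, only for Tph2-/- against Tph2+/+. The simulation took its means, library totals and spread from these data. Gene sums added the loci of a gene with its 5 kb flanks (GENCODE M21). CPM are counts scaled to a common library total with TMM factors. DESeq2 1.42.0 and other settings served as alternatives. Replicates are separate mice. The study assigned whole litters to MS or control, and the fits had no litter term. Mice of the same litter thus counted as independent in the p-values and SEs for MS. The members and lists were chosen with earlier results of these data known. Named were the loci and gene sums with the smallest p per comparison (up to 4 and 3), the extremes of locus number and level, loci at starts, the 3 loci with most counts and the 3 genes most variable between controls. Other names were chosen after their values were seen.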

Additional observations from a re-analysis of the deposited data

Results flagged for a closer look

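Single libraries lay far from the rest of their group at several named loci and gene sums, by Dixon's gap test over groups of 6 to 8 libraries. The test was run 210 times, over 20 loci and 15 gene sums, and 20 values stood apart, in 12 libraries, where chance gives about 1 in 20 groups. The loci and sums overlap, so these are not independent. Tph2-/- MS replicate 2, 1 of S18 to S26, was high at CpG-dense loci. It had 30.7 CPM at the Tbx1 locus chr16:18583732 against 8.12 to 15.5 in the rest of its group, 66.8 CPM in the Tbx1 gene sum against 26.7 to 40.1, and 8.70 CPM at the Meis1 locus chr11:19013085 against 2.37 to 4.21. Tph2+/- MS replicate 2 was high at Otx2, with 4.11 CPM at the locus chr14:48674721 against 1.06 to 2.24 and 7.46 CPM in the gene sum against 4.93 to 6.04, and in the 1 locus of Pax9, with 2.68 CPM against 1.01 to 1.74. Pax9 was also high in Tph2+/- C replicate 1, at 3.24 CPM against 0.520 to 1.47. Tph2+/+ C replicate 4 was low at the Pax5 locus chr4:44571107, at 0.892 CPM against 1.85 to 2.65, high at the Pax5 start locus chr4:44708381, at 11.9 CPM against 5.78 to 8.47, and high in the Emx1 gene sum, at 22.2 CPM against 16.2 to 18.9. Tph2-/- MS replicate 6 was low in the gene sums of Gata4, at 25.4 CPM against 28.8 to 30.6, and of Pax2, at 43.5 CPM against 51.4 to 56.1.

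The remaining libraries stood apart at other genes. At Lhx4, Tph2-/- C replicate 7 had 6.90 CPM at chr1:155704367 against 4.16 to 5.31, which put this control inside the range of the MS libraries, and Tph2+/+ MS replicate 7 had 2.67 CPM at chr1:155722795 against 0.373 to 1.32. The latter library also had 3.53 CPM at the Foxp2 locus chr6:15404765 against 1.58 to 2.43, and Tph2+/- C replicate 8 had 4.57 CPM there against 2.74 to 3.58. Tph2-/- C replicate 1 had 14.6 CPM at the Tbx1 locus chr16:18583732 against 10.4 to 11.6, and Tph2+/- MS replicate 1 had 39.3 CPM in the Tbx1 gene sum against 26.96 to 30.1. The Gata6 gene sum was 12.9 CPM in Tph2+/+ C replicate 1 against 15.7 to 17.6, and the Six3 gene sum was 14.7 CPM in Tph2+/- MS replicate 5 against 11.5 to 12.8.

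The test of the interaction between MS and Tph2-/- met the study's unadjusted limits at a Gata3 locus (0.99 on the log2 scale) and a Foxp2 locus (-0.97). These were 0.749% of the member loci, where 0.558% of all loci met the limits. Neither had an adjusted p below 0.05 in edgeR, and the Gata3 locus, at 0.60, was not called without S18 to S26.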

How the results depend on the processing

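No member locus or gene sum had an adjusted p below 0.05 in any of the 8 comparisons under any alternative. Counts at the unadjusted limits moved, for causes that were not tested, and the share of all loci or genes called by the same fit stands in brackets. Without S18 to S26, a fit with fewer MS libraries by construction, the member loci called went from 11 to 1 for MS over genotypes (1.26%), 1 to 2 for MS in Tph2+/- (0.848%), 3 to 1 for MS in Tph2-/- (1.18%), 3 to 0 for Tph2-/- against Tph2+/+ (0.653%), 0 to 1 for GE1 (0.766%) and 2 to 4 for GE2 (0.855%). Tph2+/- against Tph2+/+ stayed at 2 (0.738%), but at different loci. Gene sums went from 11 to 2 for MS over genotypes (5.57%), 6 to 1 in Tph2+/+ (4.88%), 6 to 0 in Tph2-/- (5.56%), 2 to 1 for Tph2+/- against Tph2+/+ (3.46%) and 0 to 1 for GE2 (4.42%), and the Otx2 gene sum for MS in Tph2-/- turned from 0.40 to -0.038. DESeq2 called 8 loci in place of 4 for MS in Tph2+/+ (1.56%). A CpG density offset called 9 in place of 4 there (1.46%), 5 in place of 3 in Tph2-/- (1.44%) and 1 in place of 0 for GE1 (0.698%). When replicates 2 and 3 of Tph2-/- MS were dropped and 7 was kept, MS in Tph2+/- gave 2 (0.859%), GE1 1 (0.687%) and GE2 4 loci (0.600%). With all 48 libraries, MS in Tph2-/- gave 14 loci (5.37%), and Tph2-/- against Tph2+/+ gave 1 gene sum in place of 2 (7.99%). Gene bodies without flanks gave 3 gene sums in place of 6 for MS in Tph2+/+ (7.04%), 0 in place of 1 in Tph2+/- (4.39%), and 1 in place of 2 for Tph2+/- (2.89%) and for Tph2-/- against Tph2+/+ (5.16%). Of the alternative values of single loci and gene sums, 195 kept direction and call, 43 kept direction and lost the call, 24 of them without S18 to S26, 3 gained it and 1, Otx2, reversed.

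Replicate numbers are shared between groups but did not pair the mice. Over 120 same-numbered pairs the correlation of deviations at all loci had a median of 0.014 and a range of -0.148 to 0.234, and 11 exceeded 0.1. With the replicate block, MS over genotypes gave 14 loci in place of 11 (3.68%) and GE1 1 in place of 0 (0.63%), and the Pax5 locus called for MS in Tph2-/- (0.41), the Emx1 gene sum there (0.17) and the CpG-dense Meis1 locus in Tph2-/- against Tph2+/+ (0.33) were not called. At a median of 27 counts per locus and library, counting error alone had an SD of 19.2% in a single library. The smallest difference that the fits could detect was not computed.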
